A study of Mus musculus with 4 samples.

Results

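The complement system was followed through 9 genes in mouse fibroblast cultures on day 9 of reprogramming: C4b, Cfb, C2, C3, C1ra, C1rl, Serping1, Cd55 and Cd59a. The members were taken by gene name, and all 9 were found among the 22369 genes of the deposited expression table. They had been chosen by their values in the same comparison, V118M against wild type, so their differences between groups are given as a description without a test. All 9 passed the filter on low values, which asked for 1 or more in 2 or more libraries and kept 19547 genes.

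The 4 libraries came from OG2MEF cells, mouse embryonic fibroblasts that carry an Oct4-driven green fluorescent reporter. Of these, 2 were labelled SOX17 WT and 2 SOX17-V118M, the latter a missense form of this endodermal transcription factor. Retroviruses carried Sox2 and Klf4 with OCT4, SOX17, SOX17-V118M or GFP, and the cells were then kept in medium for mouse embryonic stem cells that held LIF and vitamin C. The labels do not say which viruses each library received, nor that replicates were separate cultures, so any p-value measures only the spread between these libraries, which may be technical.

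Complement is a cascade of secreted proteases that marks surfaces for removal and can end in a pore in the target membrane. In the classical pathway the proteases C1r and C1s cut C4 and C2, whose fragments form an enzyme that cuts C3. In the alternative pathway factor B takes the place of C2. The C1 inhibitor and the membrane proteins CD55 and CD59 hold the cascade in check. The liver is the main source of the plasma proteins, fibroblasts also make several of them, and interferons and inflammatory cytokines are known inducers of many of these genes.

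C4b, C2 and Cfb, whose products form the C3-cutting enzymes, were higher in V118M, with C4b and Cfb at 5.55 and 5.68 times the wild-type mean and C2 at 2.15 times, though at a low level. C3 itself, C1ra, C1rl and the membrane regulator Cd55 differed little between the group means. Serping1 was 1.37 times higher, and Cd59a was high in 1 V118M library. Of the other complement genes tested, many of them at a low level, 22 were lower and 11 higher in V118M. Over all genes tested, 9559 were lower and 9779 higher. No gene of the whole table passed an adjusted p of 0.05 in limma, a share of 0% of genes tested, and 784 (4.01%) had an unadjusted p under 0.05.

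V118M replicate 2 was the most divergent library. Pearson correlations with it ran from 0.954 to 0.964, against 0.986 to 0.99 among the other 3, over the 12661 genes whose log2 values averaged 5 or more. Its deviation from the others also went with transcript length, with a Spearman's rho of -0.55 across genes, which are not independent replicates. For wild-type replicates 1 and 2 and V118M replicate 1, each set against the other 3 including V118M replicate 2, rho was 0.464, 0.0969 and 0.459. The values are normalized scores with nearly equal column totals, 12855482 to 12859613, so sequencing depth is unknown. Several genes share one value at the top of the scale, where differences are compressed. In these bulk cultures, fewer cells of a type and less RNA per cell cannot be told apart.

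C4b has a close paralog, C4a, and the longest C4b transcript shared 48.8% of its stretches of 31 bases with C4a transcripts. A stretch of 60 coding bases is shown because it carries 12 differences, printed in capitals, by which a read can be placed in one gene or the other. Both sequences are from GENCODE M21 transcripts, bases 2329 to 2388 of the C4b transcript and 2313 to 2372 of the C4a transcript.
C4b: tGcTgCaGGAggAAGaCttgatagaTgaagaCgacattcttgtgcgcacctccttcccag
C4a: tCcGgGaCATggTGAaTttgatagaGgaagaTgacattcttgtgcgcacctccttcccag
The right part of the stretch is identical in both genes, so reads from there could be split between them.

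C4b encodes the component whose larger fragment binds covalently to surfaces and starts the classical C3-cutting enzyme (ENSMUSG00000073418, GRCm38 chromosome 17, 34728380 to 34743882, minus strand). Its normalized values were 184 and 204 under wild-type SOX17 and 1161 and 992 under V118M. Both V118M libraries lay far above both wild-type libraries. The group means were 194 ± 14.1 and 1076.5 ± 119.5 (SD, n = 2 each), a ratio of 5.55, and the log2 difference on the log2(value + 1) scale was 2.46 with a standard error of 0.17. C4a (chromosome 17, 34809092 to 34823464) was at 21 and 16 under wild-type SOX17 and 20 and 17 under V118M, with a log2 difference of 0.01. The table pairs C4b with a short transcript of 749 bases that retains an intron, and whether the value covers all transcripts of the gene is not stated in the labels or the table.

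Cfb encodes factor B, the protease of the alternative pathway (chromosome 17, 34856374 to 34862518, minus strand). It stood at 32 and 36 under wild-type SOX17 and 172 and 214 under V118M, again without overlap. The ratio of means was 5.68, and the log2 difference of 2.46 had a standard error of 0.24. C2, the classical counterpart of factor B (chromosome 17, 34862604 to 34898265, minus strand), was much lower, with 10 in either wild-type library and 20 and 23 in V118M. Its log2 difference was 1.03 with a standard error of 0.39.

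The C2 and Cfb values carry a limit of annotation. A read-through gene, Gm20547, spans both, and the longest transcripts of Cfb and C2 shared 81.5% and 59.7% of their 31-base stretches with it, so reads of the 3 genes could be split. No gene named Gm20547 was among the 38 genes of the deposited data placed within 250 kb on each side of Cfb, so its level is not known here. Zbtb12 lies within C2 on the opposite strand, at 135 and 116 under wild-type SOX17 and 134 and 138 under V118M, and strand use in counting is not given. C2 and Cfb shared no 31-base stretch with each other.

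**Figure D1:**
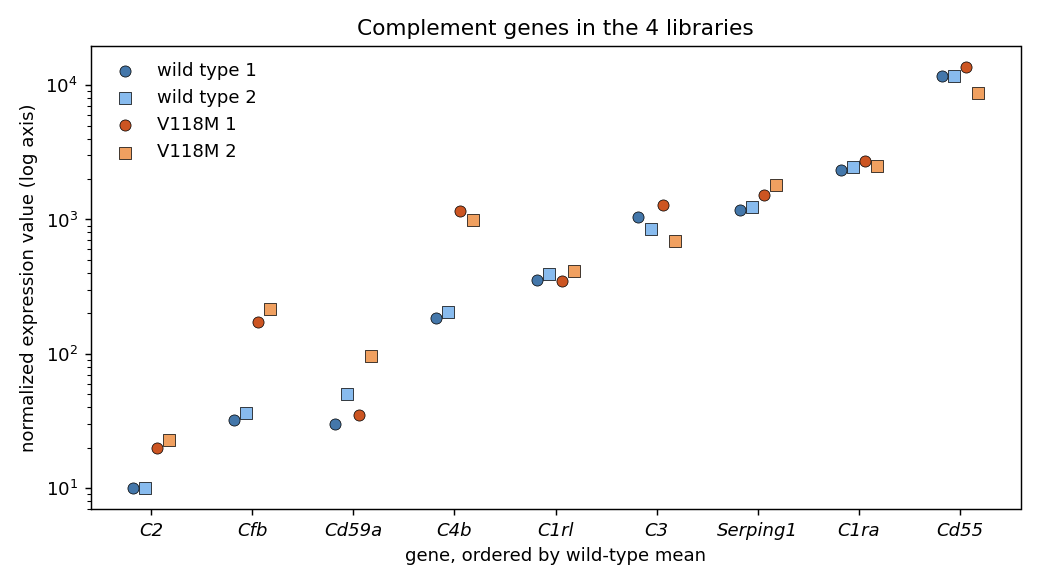
Normalized expression values (vertical log axis) of the 9 complement genes, ordered by wild-type mean. Each point is 1 library, and the V118M points of C4b (1161 and 992) and Cfb (172 and 214) stand clear of the wild-type points.

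C4b, Cfb and C2 lie close together in the class III part of the mouse major histocompatibility complex, so their neighbours were compared. The starts of C4b and C2 lie 118.6 kb and 35.7 kb to either side of that of Cfb. Within 250 kb on each side of Cfb, 33 genes other than these 3 were tested, with a median log2 difference of -0.05. Of these 33, 4 were higher and 8 lower in V118M without overlap between groups, against 13.2% and 14.8% of all genes tested. Differences ran from -1.91 to 1.66 over the 33, a range that holds the 1.03 of C2. Among the 20 whose log2 values averaged 5 or more, they ran from -0.40 to 0.38. Genes next to the members included Nelfe, at 404 and 498 under wild-type SOX17 and 489 and 658 under V118M, and Tnxb, at 1548 and 1148 against 1579 and 739. Both overlapped between groups. Cyp21a1, between C4b and C4a, was barely detected, with 3 and 1 against 7 and 8.

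**Figure D2:**
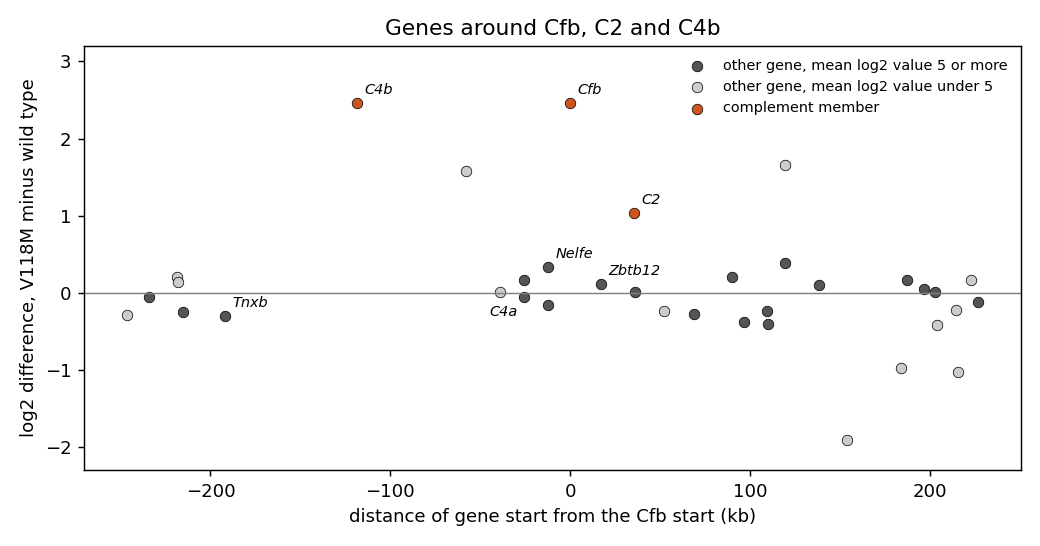
Log2 difference of V118M minus wild type for each tested gene (vertical axis) against the distance of its start from the Cfb start in kb. C4b and Cfb, both at 2.46, stand above all 33 neighbours, while C2, at 1.03, lies below 2 neighbours of low level (pale points) and above the dark points, which lie between -0.40 and 0.38.

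C3 encodes the component on which all pathways converge (chromosome 17, 57203970 to 57228136, minus strand). Its values were 1049 and 848 under wild-type SOX17 and 1280 and 690 under V118M. The V118M libraries were the highest and the lowest of the 4, so the groups overlapped. The log2 difference was -0.01 with a standard error of 0.32. Leaving out V118M replicate 2 gave 0.44 and leaving out V118M replicate 1 gave -0.45, and it was 0.08 with a trend on transcript length removed from each library. Its expressed neighbour Gpr108 was at 660 and 690 against 658 and 702.

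The C3 promoter is shown because this gene is known to answer inflammatory signals through its proximal promoter, while its level here had no common direction. The 250 bases before the RefSeq start are on GRCm38.p6, chr17:57228137-57228386, minus strand, with matches to the searched motifs in capitals.
C3: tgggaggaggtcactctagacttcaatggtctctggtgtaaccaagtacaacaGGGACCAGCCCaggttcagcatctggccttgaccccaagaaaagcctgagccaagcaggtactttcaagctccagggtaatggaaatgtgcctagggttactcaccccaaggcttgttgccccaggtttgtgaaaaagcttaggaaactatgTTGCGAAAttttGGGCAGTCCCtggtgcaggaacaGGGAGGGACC
It holds a C/EBP pattern (TTGCNNAA), 45 to 38 bases before the start, and a loose NF-kB pattern, GGG and CC with any 5 bases between them, some of whose matches overlap one on the opposite strand. Of 32851 promoters of this length, 9.6% held the first and 45.8% the second on either strand. RefSeq promoter entries were matched for 5 of the 9 members (C3, C1ra, C1rl, Cd55 and Cd59a). None was matched for C4b, Cfb, C2 and Serping1, all higher in V118M without overlap, so the motif counts leave these genes out. Of the 5 matched members, 2 held the C/EBP pattern and 3 the NF-kB pattern. The core of the interferon-stimulated response element, a pair of GAAA with any 2 bases between them, was in 1 of these 5, Cd59a, 187 to 178 bases before the start, and in 3% of all promoters. The gamma-activated site TTCNNNGAA was in 0 of 5 and in 7% of all. The SOX core CATTGT was in 1 of 5, again Cd59a, and in 10.7% of all, and the octamer ATGCAAAT in 0 of 5 and 1.6% of all. These matches are descriptions of letters and not sites of binding.

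C1ra and C1s1, the genes of the proteases that start the classical pathway, were abundant and close between groups. C1ra, which encodes C1r (chromosome 6, 124512405 to 124523443), was at 2337 and 2446 under wild-type SOX17 and 2723 and 2488 under V118M. The V118M values were just above the wild-type values, with a log2 difference of 0.12 and a standard error of 0.15. The paralog C1rb, with which C1ra shared 56.9% of its 31-base stretches, was listed at 0, 0, 0 and 1. C1rl, a C1r-like protease next to C1ra (chromosome 6, 124493113 to 124510643), was at 352 and 390 against 350 and 412. Its groups overlapped and its log2 difference was 0.04 with a standard error of 0.17. C1s1, the C1s protease and the neighbour of C1ra on the other side, was not a member. It stood at 3060 and 3041 against 3373 and 3619, without overlap, with a log2 difference of 0.20 and a standard error of 0.14.

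Serping1 encodes the C1 inhibitor, the serpin that inactivates C1r and C1s (chromosome 2, 84765387 to 84775444, minus strand). Its values were 1182 and 1241 under wild-type SOX17 and 1512 and 1800 under V118M. The groups did not overlap, and the log2 difference was 0.45 with a standard error of 0.16. It was 0.32 without V118M replicate 2 and 0.33 with the trend on transcript length removed. Its neighbour Ube2l6 was at 104 and 102 against 130 and 214.

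Cd55 encodes decay-accelerating factor, a membrane protein that takes the C3-cutting enzymes apart (chromosome 1, 130439027 to 130462744, minus strand). It was the most abundant member, with 11722 in either wild-type library and 13635 and 8712 in V118M. Since 76.7% of ranks held the same value in all sorted columns, identical scores are not read as a lack of spread. V118M replicate 1 lay above the wild-type value and V118M replicate 2 below it. The log2 difference of -0.11, with a standard error of 0.25, became 0.22 when V118M replicate 2 was left out and -0.43 when V118M replicate 1 was. The paralog Cd55b was at 8, 0, 0 and 1, and the neighbouring gene Gm15675 at 802 and 873 against 936 and 685.

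Cd59a encodes a membrane protein that blocks the final pore (chromosome 2, 104095801 to 104115354). Its values were 30 and 50 under wild-type SOX17 and 35 and 96 under V118M. Only V118M replicate 2 was above both wild-type libraries. The log2 difference of 0.57 had a standard error of 0.56 and was -0.14 without V118M replicate 2. The paralog Cd59b was at 6 and 4 against 6 and 6.

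Of the 9 members, 5 were higher in both V118M libraries than in both wild-type libraries (C4b, Cfb, C2, C1ra and Serping1), and 0 were lower in both. Over all genes tested these shares were 13.2% and 14.8%. A log2 difference of at least 1 was seen in 3 members, against 3.74% of all genes, and of at least 2 in C4b and Cfb, against 0.701%. Nothing is read from these counts, because the same comparison chose the members. The median log2 difference of the members was 0.45, against 0 over all genes tested, and without wild-type replicate 1 it was 0.21. Ranked from the highest log2 difference of 19547 genes, Cfb was at 70, C4b at 71 and C2 at 686, while C3 was at 10242 and Cd55 at 12465.

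**Figure D3:**
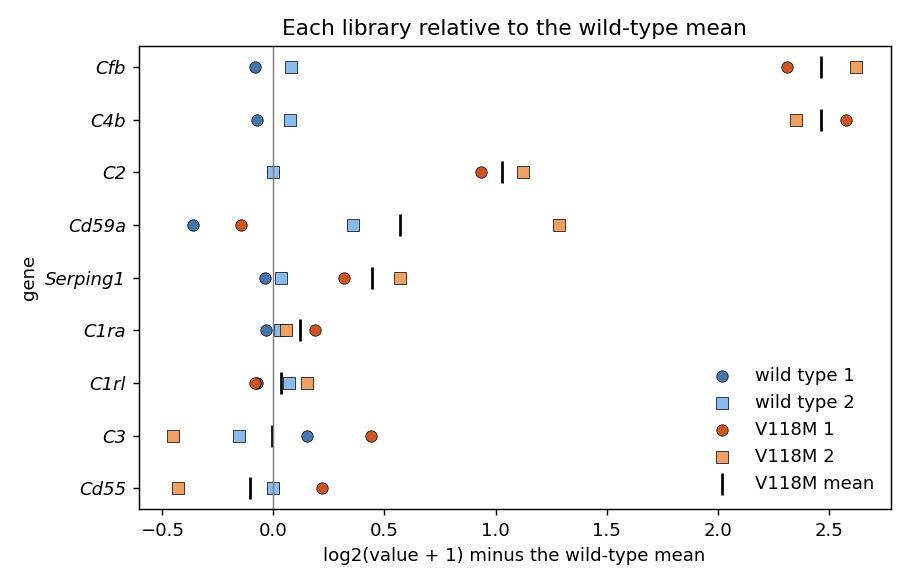
Log2(value + 1) of each library minus the wild-type mean (horizontal axis) for the 9 genes, with the V118M mean as a black bar. C4b and Cfb have both V118M libraries above 2.3, while C3 and Cd55 have V118M replicate 1 above and V118M replicate 2 below the wild-type mean.

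Levels were compared between genes as the normalized value per kb of the longest annotated transcript. Because the normalization is not given, this order is approximate. In wild type the mean level per kb was 3741 for Cd55, 802.2 for C1ra, 685.2 for Serping1, 184.7 for C3 and 123.3 for C1rl. It was 36.1 for C4b, 22.2 for Cd59a, 12.4 for Cfb and 3.79 for C2, and no 2 neighbours in this order overlapped in their libraries. In V118M the mean level per kb of C4b was 200.1, within the range of C3, 134.3 to 249.2. That range also touched C1rl, at 116.3 to 136.9. Cfb, at 62.5 to 77.8 per kb, stood above Cd59a, at 19.4 to 53.2. Serping1, at 855.2 to 1018 per kb, overlapped C1ra, at 834.6 to 913.5. C2 remained the lowest at 7.57 to 8.71 per kb.

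Beyond the members, 49 further complement genes were listed, of which 43 were in the table and 33 were tested. None passed an adjusted p of 0.05 in limma. At an unadjusted p under 0.05 there were 0 higher and 3 lower in V118M, against 2.31% and 1.7% of all genes tested. The groups did not overlap in 3 higher and 9 lower genes, against 13.2% and 14.8% of all genes tested. The median log2 difference of the 33 genes, many of them at a low level, was -0.24. Of the 33, 22 were lower and 11 higher, against 9559 and 9779 of the 19547 genes tested.

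Of 4 soluble regulators tested, 2 were lower in V118M without overlap between groups, and 1 of them, Cfhr2, had an unadjusted p under 0.05. Over all genes tested these shares were 14.8% and 1.7%. Lower without overlap were also 2 of 4 terminal components, 2 of 6 membrane regulators and 2 of 7 proteases or convertase parts. So were 1 of 7 receptors and 0 of 5 recognition genes. Cfhr2, one of a family of similar genes between which reads could be split, was at 52 and 60 against 24 and 36. Its log2 difference was -0.90, the standard error 0.33 and the limma adjusted p 0.951. Without V118M replicate 1 the difference was -0.62. Clusterin (Clu), which keeps the terminal complex out of membranes, overlapped between groups at 3166 and 3858 against 2604 and 3398. Cpn1, a carboxypeptidase that trims complement fragments, was at 457 and 567 against 442 and 429.

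The other 2 genes with an unadjusted p under 0.05 were Cd46 and C8a. Cd46, a membrane cofactor for cutting the active C3 fragment, was at 95 and 126 under wild-type SOX17 and 26 and 68 under V118M, a log2 difference of -1.36 (standard error 0.49, limma adjusted p = 0.951). Leaving out V118M replicate 1 gave -0.68, and leaving out V118M replicate 2 gave -2.03. C8a, a pore component, was at 2 and 3 and was listed at 0 in both V118M libraries. Cr1l, the rodent membrane regulator also called Crry, was at 964 and 1020 against 1012 and 1248. The scavenger lectin Colec12 was at 1190 and 1038 against 1228 and 1254. Itgam, a chain of a receptor for C3 fragments, was at 251 and 428 against 366 and 330.

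The C1q chains and the terminal components were scarce. C1qa and C1qc were at 4 in wild-type replicate 1 and at 0 in the other libraries, and C1qb was at 20, 0, 0 and 3. C6 and C8b were listed at 0 in all 4 libraries. C9 was at 6 and 10 against 2 and 4, and Hc, which encodes C5, was at 1 and 2 against 3 and 1.

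**Figure D4:**
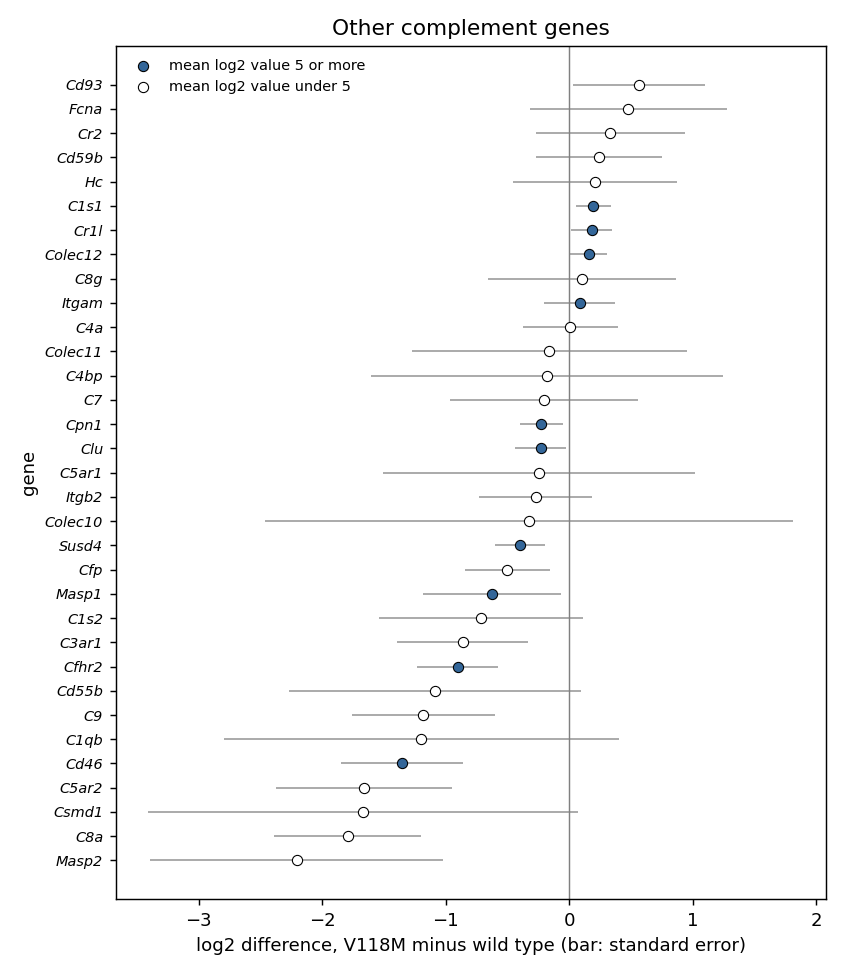
Log2 difference of V118M minus wild type, with its standard error as a bar, for the 33 tested complement genes outside the 9 members. Cfhr2, at -0.90, and Cd46, at -1.36, are the lowest of the better expressed genes (filled points), and open points mark genes of low level with wide errors.

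Markers of the cells in the culture were set beside these values. Fibroblast markers were present in 12 of 12 cases, with Col1a2 at 29492 in all 4 libraries and Vim at 19024 and 29480 in each group. Col3a1 reached the top of the scale, 61186, in 3 libraries and was at 29496 in V118M replicate 2. Each of these 3 genes held the same value in 2 or more libraries, but only Col3a1 reached the top of the scale, where differences are compressed. Of the 12 markers 7 were higher and 5 lower in V118M, against 9779 and 9559 of the 19547 genes tested. The median log2 difference of the 12 was 0.007. Without overlap, 3 were higher and 0 lower, against 13.2% and 14.8% of all genes tested. The 3 were Postn at 1263 and 1098 against 1889 and 1744, Pdgfra at 302 and 248 against 460 and 352, and Lum at 1254 and 1248 against 1356 and 1908. The summed level of the 12 was 172279 to 174336 in wild type and 143920 to 174752 in V118M. Epithelial markers were also present in 10 of 10 cases, with a summed level of 25877 to 26816 against 27312 to 30798. Within that list Krt14, a basal keratin, was at 4752 and 4358 against 5802 and 8053, while Krt8 was at 6702 and 6490 against 6332 and 5972. Krt5, the partner of Krt14, named after its values were seen, was at 246 and 199 against 664 and 731. Trp63, of the same list, overlapped at 105 and 107 against 112 and 92. Of the 10 epithelial markers 4 were higher and 6 lower in V118M, against 9779 and 9559 of the 19547 genes tested. The median log2 difference of the 10 was -0.06. Without overlap, 2 were higher and 2 lower, against 13.2% and 14.8% of all genes tested. Krt19 overlapped at 6140 and 7312 against 6692 and 8352. The labels name fibroblasts under reprogramming, and both programs were measured in the same bulk cultures.

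Macrophages also make complement proteins, so their markers were summed. Of 13 listed genes, 12 were tested, several of them near 0. Of the 12, 10 were lower and 2 higher in V118M, against 9559 and 9779 of the 19547 genes tested. Without overlap between groups, 0 were higher and 2 lower, against 13.2% and 14.8% of all genes tested. The sums were 838 and 506 under wild-type SOX17 and 348 and 405 under V118M. Cd68 was at 136 and 206 against 142 and 110, Lyz2 at 193 and 86 against 38 and 87, and Cx3cr1 was listed at 0 in all 4. Laptm5, a lysosomal protein of blood cells, was at 72 and 44 against 36 and 44. Hepatocyte markers summed to 17 and 28 against 17 and 11, with Alb at 0 in 3 libraries and at 10 in wild-type replicate 2. The highest of them was Ahsg, at 14 and 15 against 14 and 8. Pluripotent cell markers summed to 111 and 170 against 250 and 224. Tdgf1 made up most of each sum, at 83 and 126 against 188 and 149, and Dppa4 was listed at 0 in all 4. Of 10 listed, 6 were tested, and 5 were higher and 1 lower, against 9779 and 9559 of the 19547 genes tested. Without overlap, 2 of the 6 were higher and 0 lower, against 13.2% and 14.8% of all genes tested. Utf1 was at 10 and 17 against 33 and 38, and Zfp42 at 6 and 9 against 8 and 19. The part of these other cells or states in the complement values was not tested.

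Genes of the interferon response were higher in the same libraries as C4b and Cfb. All 14 listed genes were higher in both V118M libraries than in both wild-type libraries, with a median log2 difference of 1.22, and 10 had an unadjusted p under 0.05 as higher. Over all genes tested these shares were 13.2% and 2.31%. Nothing is read from these counts, because the list was chosen with earlier results of these data known. None passed an adjusted p of 0.05 in limma. Irf9, the DNA-binding part of the complex that answers type I interferon, was at 220 and 244 under wild-type SOX17 and 542 and 468 under V118M. Its partner Stat2 was at 190 and 157 against 302 and 238, and the antiviral enzyme Rsad2 at 120 and 126 against 182 and 268. The part of this response in the complement values was not tested.

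Acute-phase and NF-kB genes, a list also chosen with earlier results of these data known, differed in direction. Of 13 tested, 10 were higher and 3 lower, against 9779 and 9559 of the 19547 genes tested. The median log2 difference of the 13 was 0.26. In 6 higher and 3 lower genes the groups did not overlap, against 13.2% and 14.8% of all genes tested. At an unadjusted p under 0.05 there were 3 higher and 0 lower, against 2.31% and 1.7%. These 3, named after their values were seen, were Saa3 at 24 and 36 against 104 and 168, Lcn2 at 8 and 14 against 50 and 64, and Il6 at 13 and 12 against 26 and 36. None passed an adjusted p of 0.05 in limma. Among the most abundant members of the list, Stat3 was at 3665 and 3922 against 3664 and 3402, the feedback inhibitor Nfkbia at 1092 and 1316 against 1206 and 1758, and Socs3 at 742 and 764 against 888 and 922. Their part in the complement values was not tested.

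Likeness of pattern was measured as the Euclidean distance over the 4 libraries between log2 values minus the wild-type mean. The search covered 12593 genes whose log2 values averaged 5 or more. The members and the genes of all lists used here were left out of it, so a listed gene could lie nearer than those named. The genes nearest to the members' median profile were C630043F03Rik (distance 0.0605), Mndal (0.0621), Ube2t (0.0753), Igfbp7 (0.0779) and Panx1 (0.0834). Mndal was at 597 and 654 under wild-type SOX17 and 802 and 916 under V118M. Since the median profile lies far below C4b and Cfb, the genes nearest to C4b were added after the values were seen. They were Oasl2 (distance 0.416, at 32 and 25 against 184 and 172), Oas3 (0.457), Kcne1l (0.569), Rtp4 (0.73) and Apol9a (0.901). Of these 5, Oasl2, Oas3, Kcne1l and Apol9a were also among the 5 nearest to Cfb. C4b and Cfb both had a log2 difference of 2.46, so shared nearest genes follow in part from that likeness.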

How the data were processed

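RNA of 4 libraries, 2 per group, was extracted with TRIzol and made into libraries with a TruSeq Nano RNA kit, per the labels' protocols. FastQC, RSEM, Bowtie2, DESeq2 and mm10 are named in the submitters' processing notes, without versions or roles. The deposited values are scores, one whole number per gene and library, normalized by the authors in a way not given in the sources used here. They are not raw counts: 76.7% of ranks held the same value in all 4 sorted columns. Of 22369 genes, 22304 matched GENCODE M21 on GRCm38 (mm10), the source of positions, counted from 1.

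The scale for all tests was log2(value + 1), and a gene needed 1 or more in 2 or more libraries. A limma model (version 3.58.1, R 4.3.3) had the group as its term, with trend and robust settings, and two-sided p-values were adjusted by Benjamini-Hochberg over 19547 genes. Differences are V118M minus wild type, and the pseudocount understates changes of low genes. The fit was tested on simulated data with independent normal noise, which lacked the divergence of V118M replicate 2 and the trend on transcript length.

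The members and lists were chosen with earlier results of these data known. Named genes were all members, their paralogs and neighbours, and other complement genes with an unadjusted p under 0.05 or among the 6 highest levels. The 3 highest of each other list and the 5 nearest patterns outside the lists were also named. Others were chosen after their values were seen. Alternatives were other pseudocounts and filters, a replicate block, array weights, removal of a length trend, and each library left out. Some listed genes are not reported here and were left out of the list counts.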

Additional observations from a re-analysis of the deposited data

How the results depend on the processing

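Over 11 alternatives the log2 difference of C4b ran from 2.35 to 2.58, of Cfb from 2.31 to 2.62, of C2 from 0.82 to 1.13 and of Serping1 from 0.32 to 0.57. The sign changed for C3 in 3 alternatives, for C1rl in 2, and for Cd55 and Cd59a in 1 each. The members' median was 0.21 to 0.57 with a library left out. The labels do not say that replicate numbers pair the libraries. Deviations of same-numbered libraries correlated at 0.303 across genes, from 2 pairs. With the replicate number as a block, 3 genes passed an adjusted p of 0.05 in limma (Oas2, Ifi27l2a and C4b, the last chosen by its values in this comparison, so that nothing is read from its call), where 0 passed without the block, and 1204 genes had an unadjusted p under 0.05, against 784. That count was 1441 without a filter and 221 to 5096 with a library left out, the lone library of a group then being assumed to vary like the other group. Leaving out wild-type replicate 1 or 2 gave 221 or 269, and leaving out V118M replicate 1 or 2 gave 5096 or 2283. Other complement genes with an unadjusted p under 0.05 numbered 3, 1 with array quality weights and 0 to 5 with a library left out (0 without wild-type replicate 1, 1 without wild-type replicate 2 and 5 without V118M replicate 1). The cause of these shifts was not tested. Depth is unknown, so no counting limits are given for genes near 0.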
